A study of Danio rerio with 21 samples.

Results

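The cryptochrome genes of zebrafish were followed in whole larvae that differed in *pomgnt2*, a gene for a glycosyltransferase of dystroglycan, and in the *pomgnt2* genotype of their mothers. The genes *cry1bb* and *cry2* were selected on measured values of these pools, the count differences between offspring of ZKO and of Het females at 5 days post-fertilization (dpf), and the other family members were added by name. This gave 7 of the 36351 genes in the table (*cry1aa*, *cry1ab*, *cry1ba*, *cry1bb*, *cry2*, *cry4* and *cry5*), with no threshold on their values, and all 7 passed the filter on low counts at both ages. In RefSeq, *cry1ba* and *cry1bb* are named cry3a and cry3b, and *cry2* carried the older name cry3.

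Cryptochromes are flavoproteins related to the photolyases that repair DNA. In the circadian clock of vertebrates, CLOCK and BMAL proteins switch on the period and cryptochrome genes, and the PER and CRY proteins then block CLOCK and BMAL until they are degraded, so that the loop runs with a period of about a day. Zebrafish kept extra copies of these genes, and cells in many of their tissues respond to light directly, with some cryptochrome transcripts cycling over the day and others induced by light.

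All larvae were of the EK strain, and each library was made from polyA RNA of a pool of 4 to 6 whole larvae, with 3 pools in each of 7 groups. At 10 dpf (batch 2) the groups were MZKO (-/-) and MHet (+/-) larvae of -/- mothers. At 5 dpf (batch 1) there were MZKO (-/-) and MHet (+/-) larvae of -/- mothers, and ZKO (-/-), Het (+/-) and WT (+/+) larvae of +/- mothers. MZKO and MHet larvae came from ZKO females crossed with Het males, and ZKO, Het and WT larvae were siblings from Het x Het crosses, so what belongs to the mother's genotype and what to the type of mating cannot be told apart. Age likewise cannot be told apart from batch. According to the methods, larvae for the 10 dpf pools were kept in separate housing by genotype. Genotype and housing therefore cannot be told apart at that age. The mutant line carries frameshifts in *pomgnt2*, whose transcript had 224 to 404 counts per pool in every genotype and so gave no check of the labels. Fish on the housing system were kept on a light-dark cycle. Embryos were first held in petri dishes, and the lighting of these dishes is not given in the sources used here. The clock time at which each group was frozen is not given there either. Counts on genes summed to between 16959935 and 22439739 in each pool. Levels are given as CPM, counts relative to the effective library size set by the TMM method, and are not corrected for gene length, so they are compared between groups and not between genes. In pools of whole larvae, fewer cells of a type and less RNA per cell cannot be told apart, and p-values measure only the spread between pools. How many females or clutches gave the pools of each cross is not given in the sources used here. Pools of a cross may therefore share a mother, and the 2 comparisons by mother, made on siblings, are not independent of each other.

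In larvae of ZKO females at 5 dpf, *cry1bb* was higher than in larvae of Het females, 3.11-fold in MZKO against ZKO and 4.15-fold in MHet against Het larvae. *cry2* was lower, at 0.506 and 0.459 times its level in ZKO and Het larvae, and so was *cry1ab*, at 0.439 and 0.474 times. These are the differences by which *cry1bb* and *cry2* were picked, so they are given as a description with no test. The first 4 genes described, *cry1bb*, *cry1ba*, *cry1aa* and *cry1ab*, encode cryptochromes that repress CLOCK and BMAL in zebrafish reporter assays. *cry1bb* had 134, 139 and 166 CPM in the MZKO pools and 42.3, 48.0 and 50.6 CPM in the ZKO pools, a log2 fold change of 1.64 (SE 0.095, from the F statistic of the edgeR fit). In the MHet pools it had 186, 154 and 169.7 CPM, against 41.3, 40.4 and 41.7 CPM in the Het pools, a log2 fold change of 2.05 (SE 0.096). Every pool with a ZKO mother was above every pool with a Het mother, and the WT pools (36.9 to 42.9 CPM) lay with the ZKO and Het pools.

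Its closest copy by name, *cry1ba*, differed in the same direction and by less. It stood at 566 to 576 CPM in the MZKO pools and 394 to 424 CPM in the ZKO pools (log2 fold change 0.47, SE 0.076). In the MHet pools it stood at 540.2 to 594 CPM, against 361 to 395 CPM in the Het pools (0.58, SE 0.076). The 6 pools of ZKO females did not overlap the 9 pools of Het females.

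*cry1ab* went the other way. It had 17.0, 15.2 and 13.3 CPM in the MZKO pools and 32.4, 34.1 and 36.7 CPM in the ZKO pools (log2 fold change -1.19, SE 0.11). The MHet pools had 17.4, 17.0 and 14.2 CPM, against 36.2, 34.7 and 32.0 CPM in the Het pools (-1.08, SE 0.11). Again, the pools separated by mother and not by the larva's own genotype. Its copy *cry1aa*, whose transcript is induced by light in zebrafish cells, differed little. It averaged 119 ± 3.56 CPM in MZKO and 139.8 ± 2.57 CPM in ZKO larvae (SD, n = 3 each; log2 fold change -0.23), and 129 ± 3.75 CPM in MHet and 142 ± 3.97 CPM in Het larvae (-0.13). The pools of both pairs did not overlap, yet the WT pools of *cry1aa* spread over 118 to 137 CPM and so reached the levels of both kinds of cross.

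The remaining 3 genes encode family members outside the core repressors. *cry2* does not repress CLOCK and BMAL in zebrafish reporter assays. It had 29.6, 30.9 and 29.7 CPM in the MZKO pools and 58.0, 55.6 and 64.4 CPM in the ZKO pools (log2 fold change -0.98, SE 0.090). In the MHet pools it had 26.3, 27.2 and 24.1 CPM, against 53.9, 55.1 and 60.9 CPM in the Het pools (-1.12, SE 0.091). No pool of a ZKO female reached the lowest pool of a Het female, and WT pools (51.8 to 62.4 CPM) were again close to their Het and ZKO siblings. *cry4*, likewise without repressor activity in such assays, stood at 29.7 to 36.8 CPM in MZKO and 25.2 to 30.8 CPM in ZKO pools, which overlapped (log2 fold change 0.25), and at 31.3 to 36.4 CPM in MHet and 27.1 to 29.5 CPM in Het pools, which did not (0.24). *cry5*, which encodes a photolyase that repairs ultraviolet damage to DNA, averaged 20.0 ± 1.35 CPM in MZKO and 13.4 ± 1.48 CPM in ZKO larvae (log2 fold change 0.58, SE 0.14), and 17.0 ± 0.994 CPM in MHet and 11.5 ± 2.67 CPM in Het larvae (SD, n = 3 each; 0.57, SE 0.14). Both pairs of *cry5* were apart, with 1 Het pool low at 8.48 CPM.

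**Figure D1:**
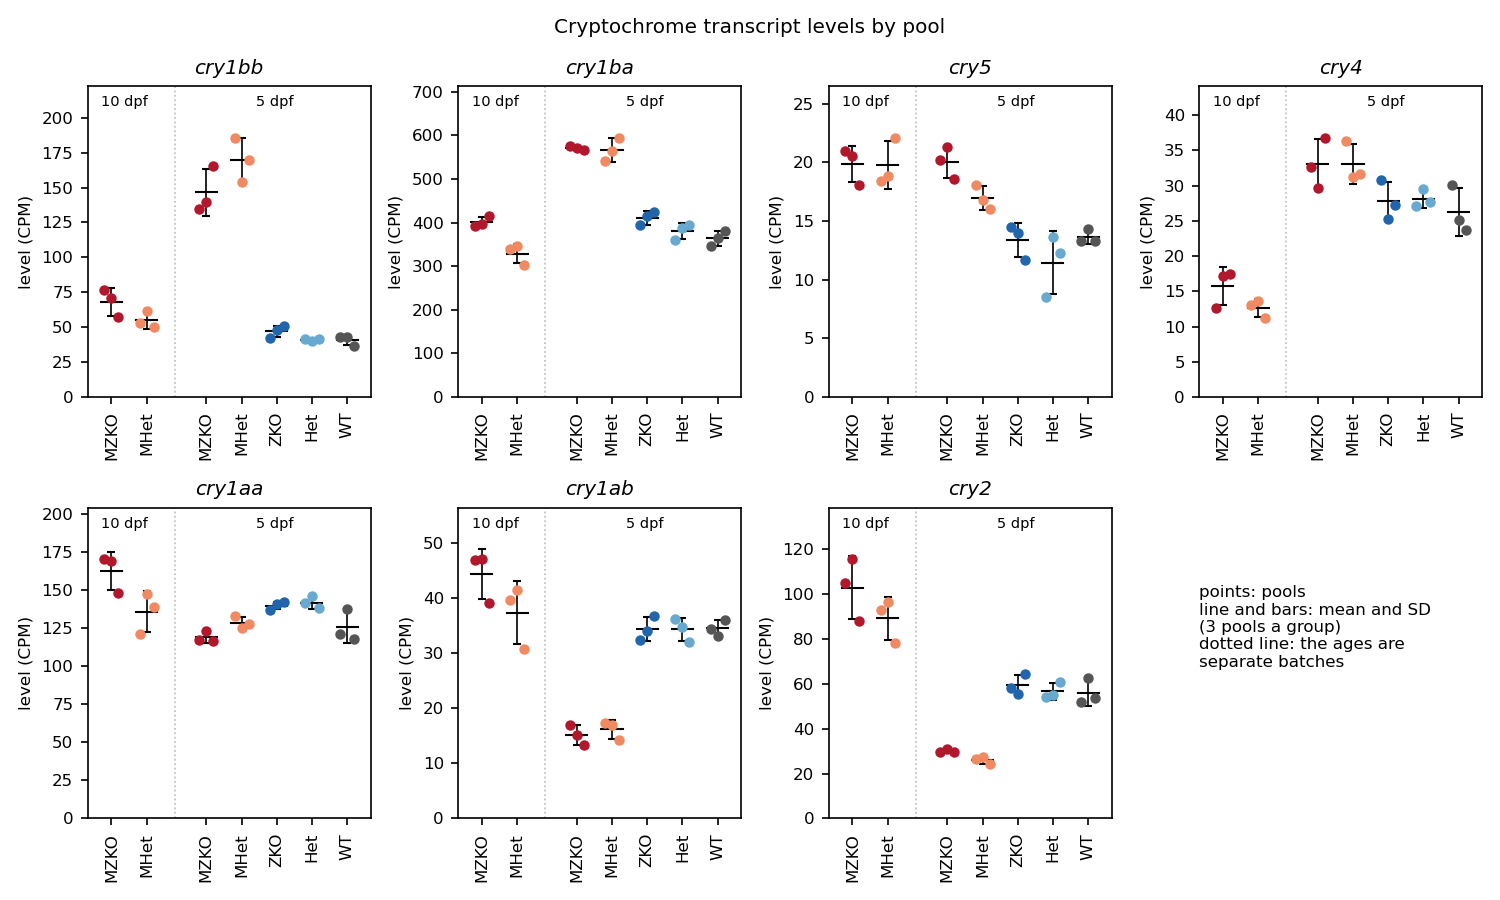
Levels of the 7 cryptochrome transcripts in CPM (vertical axes, from 0, a scale per gene) for MZKO and MHet larvae at 10 dpf and MZKO, MHet, ZKO, Het and WT larvae at 5 dpf; points are pools, lines and bars the mean and SD of 3 pools. At 5 dpf, *cry1bb* and *cry1ba* lie higher and *cry2* and *cry1ab* lower in MZKO and MHet pools than in ZKO, Het and WT pools.

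Over the 7 genes, pools did not overlap for 6 between MZKO and ZKO larvae (3 higher, 3 lower), where 40.0% of all 24846 genes tested had pools apart. Between MHet and Het larvae all 7 were apart (4 higher, 3 lower), where 36.7% of all genes were. The members past a 2-fold difference with pools apart were *cry1bb* and *cry1ab* in MZKO against ZKO larvae, beside 5.67% of all genes, and *cry1bb*, *cry2* and *cry1ab* in MHet against Het larvae, beside 4.62% of all genes. *cry2* in MZKO against ZKO larvae lay just short of 2-fold. Since these contrasts picked *cry1bb* and *cry2*, nothing is read from these counts.

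The levels of *cry1bb* and *cry2* were also set against each other within each pool. Both genes were selected on their differences between these pools, so their ratio at 5 dpf restates that choice and is given as a description only. The log2 ratio of *cry1bb* to *cry2* CPM was 2.18, 2.18 and 2.48 in the MZKO pools and 2.82, 2.50 and 2.81 in the MHet pools at 5 dpf. In ZKO pools it was -0.46, -0.21 and -0.35, in Het pools -0.38, -0.45 and -0.55, and in WT pools -0.27, -0.54 and -0.54. The 6 pools at 10 dpf, whose values the choice did not use, lay between -0.81 and -0.46. Most of them were below the range of the pools of Het females (-0.55 to -0.21), and all were far below the 5 dpf pools of ZKO females.

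**Figure D2:**
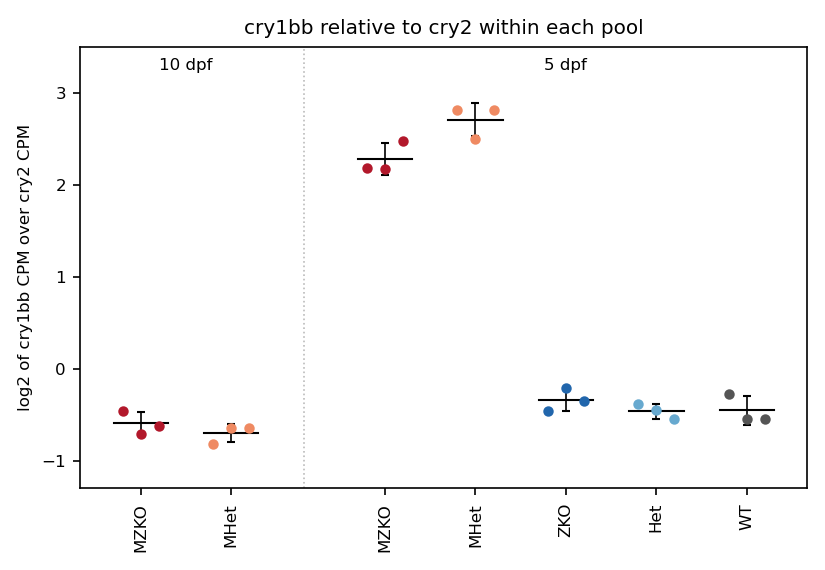
The log2 ratio of *cry1bb* CPM to *cry2* CPM (vertical axis) in each of the 21 pools, by group and age; points are pools, lines and bars the mean and SD of 3 pools. MZKO and MHet pools at 5 dpf lie between 2.18 and 2.82, and all other pools lie between -0.81 and -0.21.

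Some markers of other tissues also differed by mother. Of 8 photoreceptor markers, 4 were called lower in MZKO against ZKO and 3 in MHet against Het larvae, and none higher, where 2.50% and 1.93% of all genes were called lower. Their sum was 5460 to 5996 CPM in MZKO and 8224 to 9363 CPM in ZKO pools, and 5958 to 6146 CPM in MHet and 8169 to 9420 CPM in Het pools. In MHet against Het larvae the rod genes did not follow the sum, and neither was called. *rho*, the rod opsin, averaged 2113 CPM in MHet and 1930.0 CPM in Het larvae (log2 fold change 0.14). *gnat1*, the rod transducin, averaged 166 CPM in MHet and 150.4 CPM in Het larvae (0.15). In the other pair *rho* was lower like the sum, at 1767 CPM in MZKO and 1934 CPM in ZKO larvae, with overlapping pools. *gnat1* averaged 168 CPM in MZKO and 163 CPM in ZKO larvae, and its pools overlapped too. Of 6 lens markers, 6 and 3 were called lower, beside the same 2.50% and 1.93% of all genes, and their sum was 1209 to 1491 CPM in MZKO and 2264 to 3024 CPM in ZKO pools, and 1758 to 2128 CPM in MHet and 2437 to 2831 CPM in Het pools. None of 5 brain markers was called, although their sum was lower, at 1499 to 1542 CPM in MZKO and 1904 to 2133 CPM in ZKO pools, and 1525 to 1570 CPM in MHet and 1858 to 1921 CPM in Het pools. Sums of 5 liver, 5 muscle and 4 blood markers overlapped in both pairs. Of these, 1 liver marker was called, higher in MZKO against ZKO larvae, beside 3.10% of all genes. In that pair 2 liver markers were apart and higher and 4 muscle markers apart and lower, beside 40.0% of all genes. In MHet against Het larvae 2 liver and 1 blood marker were apart and higher and 1 muscle marker apart and lower, beside 36.7%.

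The 3 pineal markers went both ways, so that their sums overlapped in both pairs. *aanat2*, the enzyme that makes the precursor of melatonin, was called higher, with 7.17 ± 0.812 CPM in MZKO and 1.97 ± 0.952 CPM in ZKO larvae, and 6.51 ± 1.82 CPM in MHet and 2.80 ± 0.145 CPM in Het larvae (SD, n = 3 each), beside 3.10% and 1.86% of all genes called higher. *asmt*, the last enzyme of melatonin synthesis, was called lower in both (log2 fold changes -0.88 and -0.91), and *exorh*, the pineal opsin, in MZKO against ZKO (-1.07) and not in MHet against Het larvae (-0.54), beside 2.50% and 1.93% of all genes called lower. No marker was at 0 throughout a group. The part of these tissues in the cryptochrome levels was not tested.

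The larva's own genotype was next compared among siblings, a contrast on which the genes were not chosen. The pools at 5 dpf did enter that choice, so the p-values of *cry1bb* and *cry2* at this age may not be fully independent of it. A gene was called changed at an adjusted p under 0.01 with an absolute log2 fold change over 0.7, by edgeR's quasi-likelihood test with Benjamini-Hochberg adjustment over all genes tested. None of the 7 cryptochromes was called in ZKO against WT larvae, where 0.547% of genes were, nor by DESeq2. At an unadjusted p under 0.05 there were 3 of 7, beside 18.6% of all genes. *cry1bb* had 42.3, 48.0 and 50.6 CPM in ZKO and 42.9, 42.9 and 36.9 CPM in WT pools, which overlapped (log2 fold change 0.21, SE 0.095, edgeR adjusted p = 0.24). *cry1ba* was higher in every ZKO pool (394 to 424 CPM) than in any WT pool (346 to 379.8 CPM), with a log2 fold change of 0.18 (SE 0.076) and an edgeR adjusted p of 0.188, and it was the 1 member with pools apart, beside 18.9% of all genes. *cry1aa* had a log2 fold change of 0.16 (SE 0.074, edgeR adjusted p = 0.228). For the other 4, *cry2*, *cry1ab*, *cry4* and *cry5*, it lay between -0.02 and 0.09. The sum of 5 liver markers was 1584 to 1745 CPM in ZKO and 2282 to 5121 CPM in WT pools, with 3 of the 5 apart, that of 5 muscle markers 36034 to 40169 CPM in ZKO and 31405 to 33955 CPM in WT pools, with 2 of the 5 apart, and that of the 3 pineal markers 15.9 to 19.3 CPM in ZKO and 12.9 to 14.3 CPM in WT pools, with 2 of the 3 apart. None of these markers was called, and their part in the cryptochrome values was not tested.

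In Het against WT larvae none of the 7 was called by edgeR or DESeq2, and 0% of all genes were by edgeR. The 1 member with an unadjusted p under 0.05, beside 12.0% of all genes, was *cry1aa*, at 138 to 146 CPM in Het pools and 118 to 137 CPM in WT pools (log2 fold change 0.18, SE 0.074, edgeR adjusted p = 0.325). It was also the 1 member with pools apart, beside 15.4% of all genes. In ZKO against Het larvae none was called by either tool, again with 0% of all genes called by edgeR. *cry1bb*, at 42.3 to 50.6 CPM in ZKO pools and 40.4 to 41.7 CPM in Het pools, was the 1 member with an unadjusted p under 0.05, beside 7.17% of all genes (log2 fold change 0.20, SE 0.095, edgeR adjusted p = 0.694), and the 1 member with pools apart, beside 12.0% of all genes. Muscle marker sums were 36604 to 39570 CPM in Het and 31405 to 33955 CPM in WT pools, with 4 of 5 markers apart, and lens marker sums 2437 to 2831 CPM in Het and 2276 to 2368 CPM in WT pools, with 2 of 6 apart. Liver marker sums were 1584 to 1745 CPM in ZKO and 2438 to 3035 CPM in Het pools, with all 5 markers apart. The part of these tissues was not tested, and with 3 pools a group, differences of this size among siblings were not resolved after adjustment.

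Loss of *pomgnt2* on top of a ZKO mother was compared in MZKO against MHet siblings at 5 dpf. None of the 7 was called by edgeR, where 0.885% of all genes were, or by DESeq2, and 2 had an unadjusted p under 0.05, beside 23.7% of all genes. *cry1bb* had 134, 139 and 166 CPM in MZKO and 186, 154 and 169.7 CPM in MHet pools, which overlapped (log2 fold change -0.22, SE 0.091, edgeR adjusted p = 0.143). *cry2* had 29.6, 30.9 and 29.7 CPM in MZKO and 26.3, 27.2 and 24.1 CPM in MHet pools, which were apart (0.21, SE 0.092, edgeR adjusted p = 0.153). The pools of 3 members were apart, *cry2* and *cry5* higher and *cry1aa* lower in MZKO, beside 32.8% of all genes. Marker sums were apart for 3 tissues, none with a marker called. The lens sum was 1209 to 1491 CPM in MZKO and 1758 to 2128 CPM in MHet pools, with 3 of 6 markers apart, the muscle sum 34106 to 36333 CPM in MZKO and 36423 to 40864 CPM in MHet pools, with 3 of 5 apart, and the blood sum 1053 to 1571 CPM in MZKO and 1575 to 1885 CPM in MHet pools, with 0 of 4 apart. Their part in these values was not tested.

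How far the difference by the -/- genotype depended on the mother was computed as the interaction, the log2 fold change of MZKO against MHet minus that of ZKO against Het. It equals the difference between the log2 fold changes by mother on which *cry1bb* and *cry2* were selected, so it is given for the family as a description, with no p. For *cry1bb* the log2 fold change was -0.22 between MZKO and MHet larvae and 0.20 between ZKO and Het larvae, a difference of -0.41. Interactions of the other 6 genes lay between -0.11 and 0.14. All 7 were short of the 0.7 that a call needs, and 0.310% of all genes were called.

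**Figure D3:**
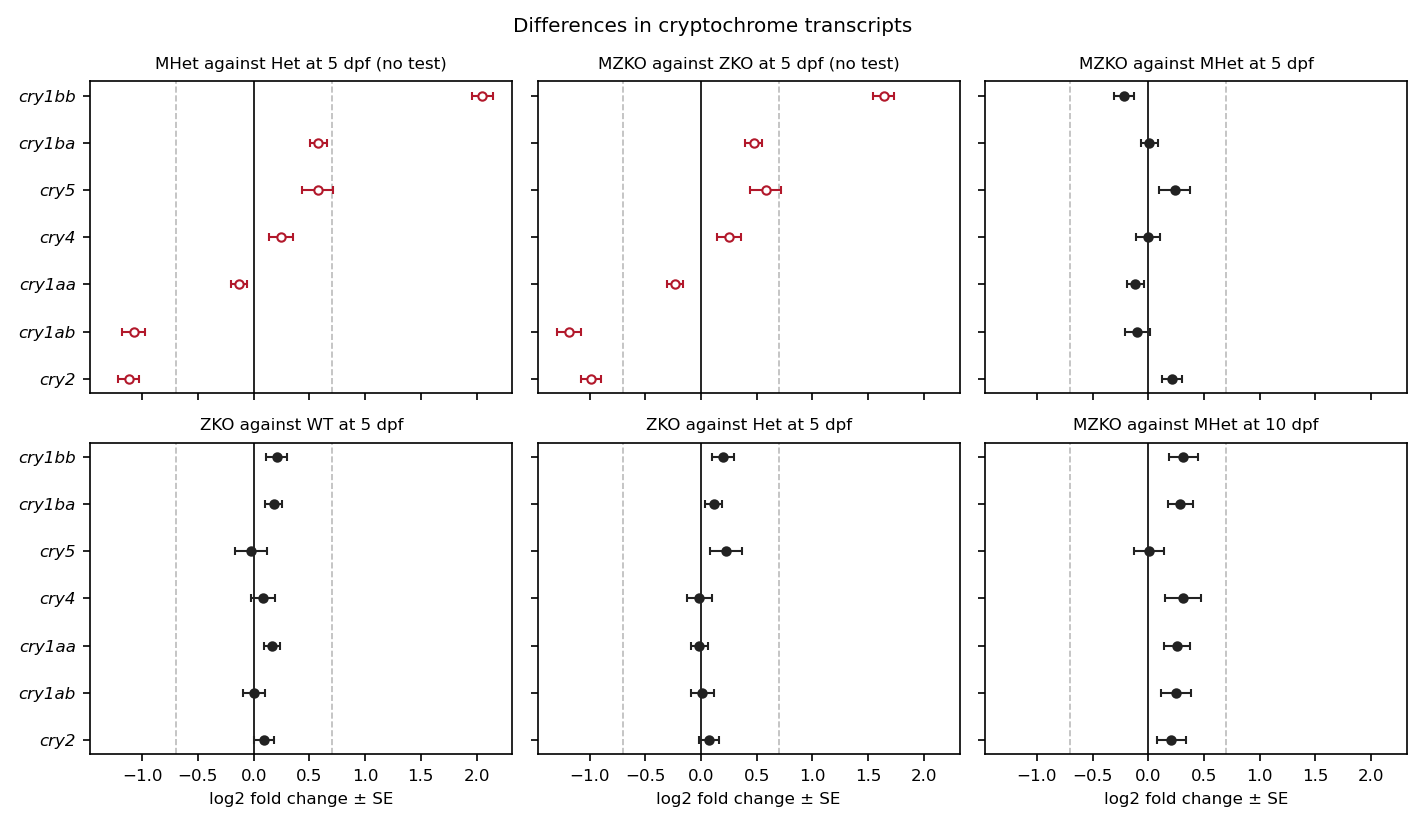
Log2 fold changes with SE (horizontal axes) of the 7 cryptochromes in 6 comparisons; open red points mark the comparisons by mother, which were not tested, filled points those tested, and dashed lines the threshold of 0.7. Past that line lie *cry1bb*, *cry1ab* and *cry2* in both comparisons by mother, and no gene in the others.

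At 10 dpf, all 7 cryptochromes had a higher mean in MZKO than in MHet larvae, which had been housed apart by genotype. The amounts were small, and none was called by edgeR, where 0.0424% of all 23597 genes tested were, or by DESeq2. Most other clock genes listed further below were higher too. Log2 fold changes were above 0 for 10 of 10 Rev-erb and Ror genes and 14 of 15 bZIP and bHLH genes. They were also above 0 for 3 of 4 period genes, 6 of 8 kinases and ubiquitin enzymes, and 2 of 6 activators. The median over all genes tested was 0.01, and the share of all genes that were higher was not computed. An unadjusted p under 0.05 was reached by 3 of the 7 cryptochromes, beside 20.1% of all genes. *cry1bb* had 76.6, 70.8 and 57.2 CPM in MZKO pools, against 52.7, 61.9 and 50.3 CPM in MHet pools, with overlap (log2 fold change 0.31, SE 0.13, edgeR adjusted p = 0.209). *cry1ba* had 393, 396 and 414 CPM in MZKO pools and 338, 345 and 303 CPM in MHet pools (log2 fold change 0.29, SE 0.11, edgeR adjusted p = 0.179). *cry1aa* had 170.2, 169 and 148 CPM in MZKO pools and 121, 147 and 139 CPM in MHet pools (0.26, SE 0.12, edgeR adjusted p = 0.236). The pools of *cry1ba* and *cry1aa* were apart, both higher in MZKO, beside 26.2% of all genes with pools apart. *cry2* (log2 fold change 0.21), *cry1ab* (0.25), *cry4* (0.31) and *cry5* (0.01) overlapped.

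Markers of 5 other tissues had sums apart between these pools, with none of these markers called by edgeR. The edgeR fit at this age called only 10 genes of the whole table, where DESeq2 called 650. Nothing is therefore read from the lack of calls, and the 5 liver markers had log2 fold changes of -2.91 to -1.98. The sum of 5 liver markers was 297 to 619 CPM in MZKO and 1472 to 3625 CPM in MHet pools at 10 dpf, that of 4 blood markers 166 to 258 CPM in MZKO and 378 to 681 CPM in MHet pools, and that of 5 muscle markers 30414 to 34400 CPM in MZKO and 35117 to 42080 CPM in MHet pools. Brain markers summed to 2124 to 2272 CPM in MZKO and 1570 to 2029 CPM in MHet pools, and pineal markers to 16.4 to 21.4 CPM in MZKO and 13.9 to 15.5 CPM in MHet pools. Pools were apart for 5 of 5 liver, 4 of 4 blood, 4 of 5 brain, 2 of 5 muscle and 2 of 3 pineal markers, beside 26.2% of all genes, and none was at 0 throughout a group. Their part in the cryptochrome values was not tested.

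Whether MZKO against MHet differed between the ages was tested in a fit of all 21 pools, which was added once results of these data were known. The 5 dpf MZKO and MHet pools in it entered the choice of *cry1bb* and *cry2*, so for these genes it is a description, with no p. None of the 7 was called, where 3.60% of all 25346 genes tested were. *cry1bb* had a log2 fold change of 0.31 at 10 dpf and -0.22 at 5 dpf, a difference of 0.52 (SE 0.15). *cry1aa* had 0.26 at 10 dpf and -0.12 at 5 dpf, a difference of 0.37 (SE 0.12, edgeR adjusted p = 0.0359). Both differences were short of 0.7, and for *cry1aa* the threshold of 0.01 was not met either. The other 5 lay between -0.23 and 0.34.

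The levels of the 7 genes at the later age are given beside those at 5 dpf as a description, because the 5 dpf MZKO and MHet pools entered the choice of genes and because the ages were separate batches. The clearest shift was in *cry2*. It had 105, 115 and 87.9 CPM in MZKO pools at 10 dpf and 29.6, 30.9 and 29.7 CPM at 5 dpf (log2 fold change 1.77, SE 0.10). In MHet pools it had 92.6, 96.3 and 78.3 CPM at 10 dpf, against 26.3, 27.2 and 24.1 CPM at 5 dpf (1.78, SE 0.11). All 6 pools at 10 dpf were thus above every pool of the series at 5 dpf, those of Het females included.

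*cry1bb* was lower at 10 dpf, at 57.2 to 76.6 CPM in MZKO pools against 134 to 166 CPM at 5 dpf (log2 fold change -1.10, SE 0.11), and at 50.3 to 61.9 CPM in MHet pools against 154 to 186 CPM at 5 dpf (-1.63, SE 0.11). *cry1ba* was lower as well, by a log2 fold change of -0.51 in MZKO and -0.78 in MHet larvae, and *cry1ab* was higher, by 1.55 and 1.21. So in these 4 genes the pools of ZKO females at 10 dpf lay on the side of the 5 dpf pools of Het females. *cry4* did not follow this order. It had 12.6, 17.1 and 17.5 CPM in MZKO and 13.0, 13.7 and 11.2 CPM in MHet pools at 10 dpf, below all 15 pools at 5 dpf, which ranged from 23.7 to 36.8 CPM (log2 fold change -1.07 in MZKO and -1.38 in MHet larvae). *cry1aa* (0.45 and 0.08) and *cry5* (-0.01 and 0.22) had the smallest differences. The genes past 2-fold with pools apart were the same 4 in each genotype taken by itself, *cry2*, *cry1ab*, *cry1bb* and *cry4*. Beside them, 15.5% of all genes met this rule in MZKO and 11.6% in MHet larvae, and the share that met it in both was not computed.

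Markers of other tissues differed between the ages too. All 6 lens markers had pools apart and higher at 10 dpf and all 4 blood markers pools apart and lower, in both genotypes, beside 53.5% of all genes with pools apart in MZKO and 49.5% in MHet larvae. The lens sum was 3436 to 3946 CPM at 10 dpf and 1209 to 1491 CPM at 5 dpf in MZKO pools, and 2716 to 4532 CPM at 10 dpf and 1758 to 2128 CPM at 5 dpf in MHet pools. The blood sum was 166 to 258 CPM at 10 dpf and 1053 to 1571 CPM at 5 dpf in MZKO pools, and 378 to 681 CPM at 10 dpf and 1575 to 1885 CPM at 5 dpf in MHet pools. The liver sum was 297 to 619 CPM at 10 dpf and 1540 to 2638 CPM at 5 dpf in MZKO pools, with 4 of 5 markers apart, and overlapped in MHet pools. The brain sum was 2124 to 2272 CPM at 10 dpf and 1499 to 1542 CPM at 5 dpf in MZKO pools, with 4 of 5 markers apart. In MHet pools the brain sums barely separated, at 1570.25 to 2029 CPM at 10 dpf and 1525 to 1570.22 CPM at 5 dpf, with 2 of 5 markers apart. The photoreceptor sum was 4399 to 5115 CPM at 10 dpf and 5958 to 6146 CPM at 5 dpf in MHet pools, and overlapped in MZKO pools. Of the 8 photoreceptor markers in MHet pools, 5 were apart and lower and 1 apart and higher. The pineal sum was 16.37 to 21.4 CPM at 10 dpf and 12.9 to 16.35 CPM at 5 dpf in MZKO pools, and overlapped in MHet pools. Of the 3 pineal markers in MZKO pools, 2 were apart and higher and 1 apart and lower. The part of these tissues in the cryptochrome levels at the ages was not tested.

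Ranked by mean, the groups of *cry1bb* ran, highest first, from MHet (169.7 CPM) and MZKO at 5 dpf (147 CPM), which overlapped, through MZKO (68.2 CPM) and MHet at 10 dpf (54.9 CPM) and ZKO (47.0 CPM), of which MHet overlapped both others, to Het (41.1 CPM) and WT (40.9 CPM), which overlapped each other. ZKO pools overlapped the WT pools and not the Het pools. For *cry2* the order was MZKO (103 CPM) and MHet at 10 dpf (89.0 CPM), which overlapped, then ZKO (59.3 CPM), Het (56.6 CPM) and WT (55.9 CPM), which did not separate, and last MZKO (30.0 CPM) and MHet at 5 dpf (25.9 CPM), which were apart by a small step. The highest group mean was 4.15 times the lowest for *cry1bb* and 3.97 times for *cry2*. For the rest it was 2.93 times for *cry1ab*, 2.62 for *cry4*, 1.75 for *cry5*, 1.73 for *cry1ba* and 1.36 for *cry1aa*.

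Other genes of the clock loop were counted from lists of period genes, activators, the Rev-erb and Ror receptors, bZIP output factors with bHLH repressors, and the kinases and ubiquitin enzymes that act on CRY and PER. Of these, 44 genes were found and 43 tested. The lists, like those of the tissue markers, were chosen with earlier results of these data known. Calls in them by mother are therefore given as a description and not as independent support. Such calls also take pools as replicates, though the number of mothers behind the pools is not given. None was called in ZKO against WT, Het against WT or ZKO against Het larvae, beside 0.547%, 0% and 0% of all genes. None was called in MZKO against MHet larvae either, beside 0.885% of all genes at 5 dpf and 0.0424% at 10 dpf. With shares this low a list of 43 genes may well hold none, so nothing is read from this. By mother, 3 were called higher and 13 lower in MZKO against ZKO larvae, where 5.60% of all genes were called (3.10% higher, 2.50% lower). In MHet against Het larvae 2 were called higher and 13 lower, where 3.79% of all genes were called (1.86% higher, 1.93% lower). Their median log2 fold changes were -0.20 and -0.10, beside -0.01 and 0.00 over all genes tested.

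Of the 4 period genes, whose proteins pair with cryptochromes in the repressor complex, *per1a*, *per1b* and *per3* were called lower in larvae of ZKO females at 5 dpf in both comparisons, where 2.50% of all genes were called lower in MZKO against ZKO and 1.93% in MHet against Het larvae. *per1a* averaged 6.79 ± 1.17 CPM in MZKO and 36.0 ± 5.47 CPM in ZKO larvae, and 7.82 ± 1.18 CPM in MHet and 38.0 ± 2.00 CPM in Het larvae (SD, n = 3 each). *per1b* had log2 fold changes of -2.16 in MZKO against ZKO and -1.97 in MHet against Het larvae, and *per3* -0.80 and -0.70. *per2*, which is induced by light, had -0.59 and -0.25 and was not called in either, and its MHet and Het pools overlapped. *cry2* and *cry1ab* thus differed in the same direction as *per1a*, *per1b* and *per3*, and *cry1bb* and *cry1ba* in the opposite one. All 4 period genes were higher at 10 dpf than at 5 dpf in both genotypes, by log2 fold changes of 1.17 to 2.99 in MZKO and 0.79 to 2.67 in MHet larvae.

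The activators that PER and CRY hold back, *clocka*, *clockb*, *npas2*, *arntl1a*, *arntl1b* and *arntl2*, differed less. Their log2 fold changes lay between -0.02 and 0.95 in MZKO against ZKO and between -0.10 and 0.75 in MHet against Het larvae. *arntl2*, a gene for a BMAL partner of CLOCK, was the 1 of 6 called in each, beside 3.10% and 1.86% of all genes called higher, averaging 21.3 ± 3.11 CPM in MZKO and 11.0 ± 1.38 CPM in ZKO larvae, and 20.1 ± 0.737 CPM in MHet and 12.1 ± 1.59 CPM in Het larvae (SD, n = 3 each). Of the 10 Rev-erb and Ror genes, 1 was called higher and 3 lower in either comparison, and of 15 bZIP and bHLH genes tested, 1 was called higher and 7 lower in MZKO against ZKO and 0 higher and 7 lower in MHet against Het larvae. Beside these counts, 3.10% of all genes were called higher and 2.50% lower in MZKO against ZKO, and 1.86% higher and 1.93% lower in MHet against Het larvae. None of 8 kinases and ubiquitin enzymes found was called. The 8 light-induced genes found, among them *cry1aa*, *cry5* and *per2*, summed to 570 to 599 CPM in MZKO and 584 to 617 CPM in ZKO pools, and to 561 to 647 CPM in MHet and 585 to 589 CPM in Het pools, so that both pairs overlapped. Single members went both ways, with pools apart and higher for 3 and lower for 4 of the 8 in MZKO against ZKO, and for 4 and 1 in MHet against Het larvae, beside 40.0% and 36.7% of all genes with pools apart. The 1 member called was *lonrf1*, higher in MZKO against ZKO larvae (134 ± 2.46 CPM in MZKO and 81.4 ± 4.38 CPM in ZKO larvae, SD, n = 3 each).

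**Figure D4:**
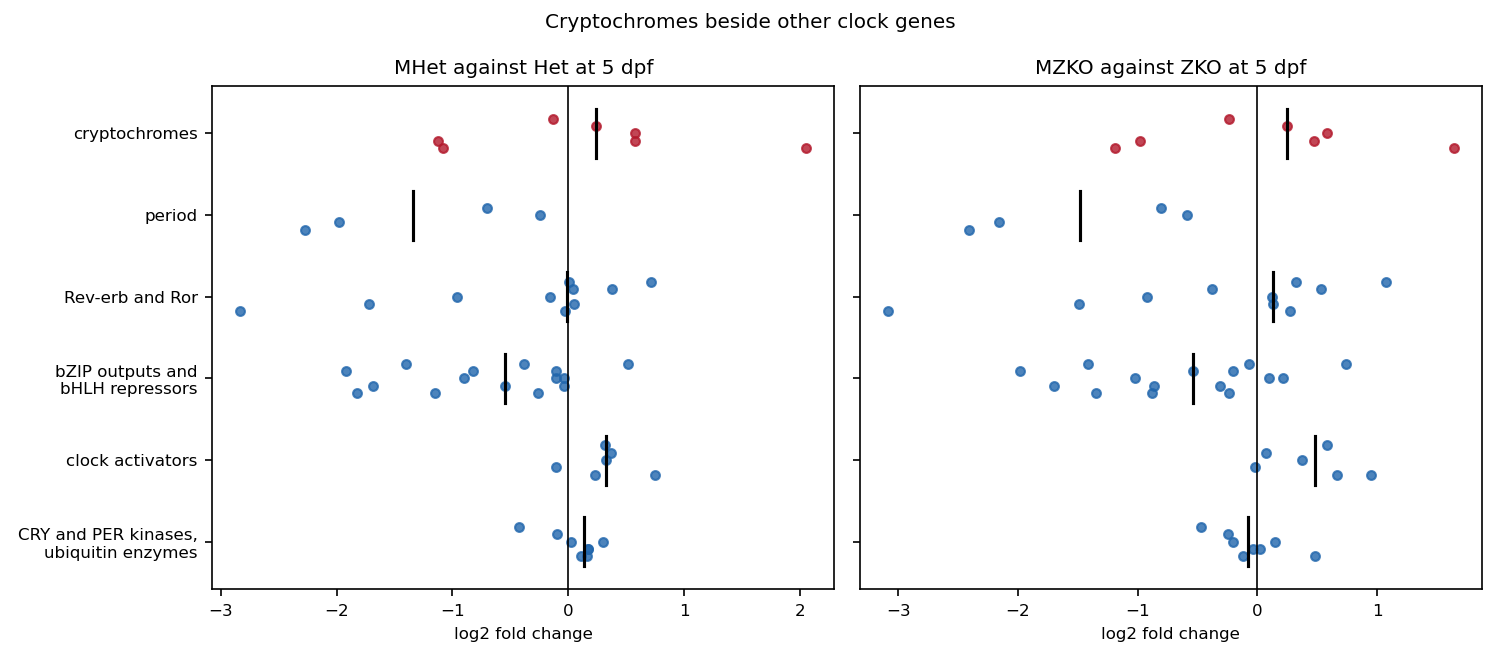
Log2 fold changes (horizontal axes) of the 7 cryptochromes (red) and of other clock genes by list (blue) in MHet against Het and MZKO against ZKO larvae at 5 dpf; each point is a gene and the black line the median of its list. The 4 period genes all lie below 0, whereas cryptochromes lie on both sides, from -1.12 to 2.05 in MHet against Het and from -1.19 to 1.64 in MZKO against ZKO larvae.

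The genes most like *cry1bb* and *cry2* were found by Pearson's r of log2 CPM over the 21 pools, among 21823 genes with a mean of at least 1 CPM. They were ranked from the highest r down, so genes that differed in the opposite direction could not be among them. As the pools fall into sets by cross and age, these values describe shared group differences and carry no p. For *cry2* the nearest were 2 clock-controlled repressors, *bhlhe41* (r = 0.979) and *nfil3-6* (0.973), followed by *stk35* (0.969), *si:ch211-132b12.7* (0.968) and *pnp5b* (0.963). *bhlhe41* averaged 87.7 CPM in MZKO and 82.8 CPM in MHet larvae at 10 dpf, and at 5 dpf 22.5 CPM in MZKO, 25.4 CPM in MHet, 45.8 CPM in ZKO, 47.6 CPM in Het and 49.9 CPM in WT larvae, the same order of sets as *cry2*.

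For *cry1bb* the nearest were the transcript XLOC_018082 (r = 0.937), *ube4b* (0.921), *pex5* (0.920), *tspo* (0.919) and *vgll2a* (0.917), and no gene of the clock lists was among these 5. XLOC_018082 averaged 7.58 ± 0.473 CPM in MZKO and 0.152 ± 0.13 CPM in ZKO larvae, and 6.63 ± 0.807 CPM in MHet and 0.0172 ± 0.0298 CPM in Het larvae at 5 dpf (SD, n = 3 each). At 10 dpf it averaged 0.0742 CPM in MZKO and 0.0903 CPM in MHet larvae. Outside the 5 dpf MZKO and MHet pools these means are at or near what 3 counts are worth in a library (0.133 to 0.196 CPM), and the transcript reached the minimum mean of 1 CPM only through those pools, so its r restates that difference. *tspo*, which encodes a mitochondrial membrane protein, averaged 31.3 CPM in MZKO and 16.5 CPM in ZKO larvae, and 34.7 CPM in MHet and 14.2 CPM in Het larvae. The single levels of *cry1ba* and *cry1bb*, and of *cry1aa* and *cry1ab*, are uncertain as far as reads of near-identical stretches could be counted to either copy, since the counting options are not given in the sources used here and the sequences were not compared.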

How the data were processed

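Libraries were directional and made from polyA RNA of pooled whole larvae. According to the methods and the labels, the authors trimmed the first 10 bases, removed reads with a Phred score under 20, aligned the rest with HISAT2 to GRCz11 (danRer11) and counted them per gene with featureCounts. The deposited values are these raw counts, not normalized, for 36351 genes in 21 libraries, none of them identical. Strand and multi-mapping options are not given in the sources used here.

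Counts were filtered with filterByExpr, scaled by TMM and fitted with edgeR 4.0.16 (R 4.3.3, robust quasi-likelihood), in 1 fit of the 15 pools at 5 dpf, 1 of the 6 pools at 10 dpf, and 1 of all 21 pools for differences between ages. Standard errors were derived from F, as the size of the log2 fold change over F's square root. DESeq2 1.42.0, its size factors, other filters, other sets of samples, a replicate block and leaving out each pool were run as alternatives. A count of 3 is 0.133 to 0.196 CPM, and depth covers counting error only. Replicate numbers do not mark shared clutches in the labels, so pools were treated as unpaired. Every gene matching the family's name was described, other clock genes were counted in lists with period genes and activators named, and the 5 nearest genes of *cry1bb* and *cry2* were named. These genes and lists were chosen with earlier results of these data known. Scripts were tested on simulated data. RefSeq names (GRCz12tu) matched all 7 members.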

Additional observations from a re-analysis of the deposited data

Results flagged for a closer look

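The difference between MZKO and MHet larvae in *cry1aa* had opposite signs at the ages, though it was called at neither. Every MZKO pool was above every MHet pool at 10 dpf (148 to 170.2 CPM in MZKO and 121 to 147 CPM in MHet pools, edgeR adjusted p = 0.236). At 5 dpf every MZKO pool was below every MHet pool (117 to 123 CPM in MZKO and 125 to 133 CPM in MHet pools, edgeR adjusted p = 0.369). Pools were apart for 26.2% of all genes at 10 dpf and 32.8% at 5 dpf. The log2 fold change at 10 dpf minus that at 5 dpf was 0.37 (SE 0.12, edgeR adjusted p = 0.0359), short of the threshold, and age and batch cannot be told apart. Larvae at 10 dpf had also been housed apart by genotype.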

How the results depend on the processing

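No cryptochrome was called in any of the 5 tested comparisons under any alternative run. None was called in the difference between ages by DESeq2 or with a replicate block. The lowest adjusted p in the tested comparisons was 0.0211, for *cry1ba* in MZKO against MHet larvae at 10 dpf (range over its alternatives 0.0211 to 0.394). For *cry1bb* the interaction ranged over its alternatives from -0.51 to -0.32. Of the 42 values by gene over the 5 tested comparisons and the interaction, 13 changed sign under some alternative. Each of these 13 had a reported log2 fold change of at most 0.083 in size. Leaving out single pools left the count of called cryptochromes at 0, and put the count past 2-fold with pools apart at 2 to 3 genes in MZKO against ZKO (3 without ZKO replicate 2 or MZKO replicate 2, *cry2* ranging over -1.02 to -0.91), at 2 to 3 in MHet against Het (2 without MHet replicate 3, *cry1ab* ranging over -1.14 to -0.99) and at 3 to 4 between ages (3 without MZKO replicate 3 at 5 dpf or replicate 1 at 10 dpf). The log2 fold change of *cry1bb* stayed at 1.54 to 1.70 in MZKO against ZKO and at 1.98 to 2.12 in MHet against Het larvae. Over the whole table, leaving out 1 pool moved the calls in ZKO against WT to between 23 (without ZKO replicate 1) and 596 (without WT replicate 3), in Het against WT to at most 45 (without WT replicate 3), in ZKO against Het to at most 1, in MZKO against MHet at 5 dpf to between 114 (without MHet replicate 1) and 222, in the interaction to between 33 (without Het replicate 3) and 84, and in MZKO against MHet at 10 dpf to between 4 (without MHet replicate 1) and 212 (without MHet replicate 2), so the shares of all genes called are unstable. The replicate block left the count of called cryptochromes at 0 and called 365 genes of the whole table in place of 10 at 10 dpf and 1 in place of 0 in ZKO against Het larvae. Same-numbered pools correlated between -0.09 and 0.11 at 5 dpf and between -0.14 and 0.10 at 10 dpf in their deviations from the group mean. Pools of different number correlated between -0.11 and 0.09 at 5 dpf and between -0.10 and 0.16 at 10 dpf. Over the whole table, DESeq2 called 435 genes where edgeR called 136 in ZKO against WT, 3 where it called 0 in Het against WT, 16 where it called 0 in ZKO against Het, 202 where it called 77 in the interaction and 650 where it called 10 at 10 dpf. The fit of all 21 pools called 23, 43 and 545 genes in ZKO against WT, the interaction and MZKO against MHet at 10 dpf, and the fit of only the groups compared 11 in ZKO against WT, 51 in ZKO against Het and 123 in the interaction. Without the filter on low counts, 127 genes were called in the interaction and 164 at 10 dpf. At an adjusted p under 0.05 with no minimum fold change, 1016, 1, 2398, 648 and 394 genes were called in ZKO against WT, Het against WT, MZKO against MHet at 5 dpf, the interaction and MZKO against MHet at 10 dpf. The cause of these differences was not tested.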
